A study of Homo sapiens with 6 samples.

Results

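The human genes whose names begin with UBE2 encode ubiquitin-conjugating enzymes and close relatives, the E2 step of protein modification by ubiquitin. They were taken as every row of the deposited expression table with a symbol starting with UBE2, which gave 35 genes of 17911. The transcripts were measured by RNA sequencing in HL-60, an established human promyelocytic leukaemia cell line with no engineered allele named in the labels. The 3 control libraries were labelled only as control, without a vehicle being named, and the other 3 came from cells given 10 uM amiodarone for 24 h. Amiodarone is an antiarrhythmic drug, and the series title names it as an activator of the mitochondrial deacetylase SIRT3 that causes autophagic and mitophagic death of leukaemia cells. Nothing in the labels ties the libraries to separate cultures. The p-values therefore reflect only how these 6 libraries scatter, and that scatter may be technical.

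Ubiquitin is first activated by an E1 enzyme, then passed to a cysteine of an E2, and from there attached to a target with the help of an E3 ligase. The E2 largely sets which chain is built, and some E2 enzymes carry other modifiers instead of ubiquitin, namely SUMO, NEDD8 or ISG15. UBE2V1 and UBE2V2 lack the catalytic cysteine and act as partners of UBE2N. In dividing cells UBE2C and UBE2S work with the anaphase-promoting complex (APC/C), the ligase that destroys cyclins and securin at the end of mitosis.

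The values were taken as RPKM, read counts divided by gene length and sequencing depth. Levels of different genes are set side by side on that assumption. All 8 promyelocyte markers checked had a mean of at least 10, with MPO (myeloperoxidase) the most abundant. Their summed value ran from 7066 to 7190 in the controls and from 3202 to 3266 after amiodarone, and the part of this shift in the UBE2 values was not tested. MPO carried most of that sum (5914 to 5998 and 2596 to 2646), and 2 of the 8 markers did not fall, MYB at 111.2 to 112.7 and 120.0 to 126.9 and CD33 at 89.3 to 93.5 and 91.9 to 99.0. Erythroid and fibroblast markers all had a mean under 1, and the T cell and epithelial lists had 1 each above it, CD3D and KRT8. Of the 3 B cell markers in the table, CD79A and CD79B were above 10, and the summed B cell value was 22.7 to 23.2 in the controls and 21.8 to 23.2 after amiodarone. Steps between low values put the depth at about 18200000 reads in each control and 16200000 to 16600000 after amiodarone. At that depth, with the longest transcript taken as the gene's length, UBE2D1 had the fewest reads of the tested UBE2 genes. Its estimate was 312 to 361 reads per library.

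Transcripts of most UBE2 genes were lower after amiodarone, and those of UBE2T, UBE2C, UBE2N and UBE2S fell furthest. A total of 32 of the 35 genes reached a value of 1 in 3 or more libraries and were tested with limma on log2(value + 1), with p-values adjusted over all 11445 genes tested. At an adjusted p under 0.05, 18 UBE2 genes were called lower, 6 higher and 8 not called. Over all tested genes 78.3% were called, 44.8% lower and 33.5% higher, so the 24 called of 32 (75.0%) is near the background. The median log2 fold change was -0.20 over the UBE2 genes and -0.06 over all genes. Scaling moved the split: median-of-ratios scaling gave 17 UBE2 genes lower and 8 higher, and scaling to equal sums gave 23 lower and 3 higher. The split over all tested genes moved too. Of all genes called, 42.8% were higher as deposited, 50% under median-of-ratios scaling and 34.6% after scaling to equal sums. Most changes were small, as 4 UBE2 genes were called with a change of at least 1.5-fold and 2 with at least 2-fold on log2(value + 1). Over all tested genes 21.1% passed the first limit and 5.15% the second. All 4 were lower, as were 12% of all tested genes at that size, and no UBE2 gene was called at least 1.5-fold higher, against 9.07% of all tested genes. The groups did not overlap in 26 of the 32 genes and in 79.3% of all tested genes.

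**Figure D1:**
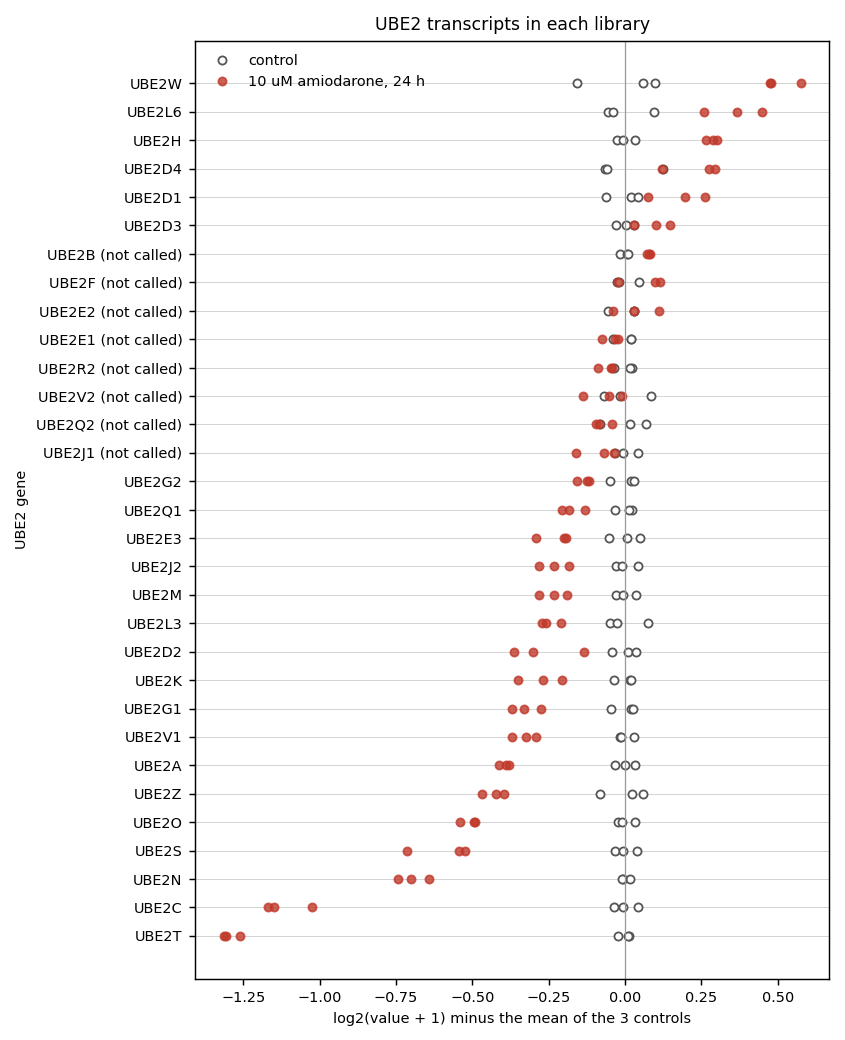
Each row is a tested UBE2 gene, with 1 of the 32 not shown, and each point is 1 library, placed on the x axis at its log2(value + 1) minus the mean of the 3 controls; open points are controls and filled points are amiodarone libraries. UBE2T and UBE2C lie furthest to the left (log2 fold changes of -1.29 and -1.11) and UBE2W furthest to the right (0.51), and the 8 genes that were not called stand between the called groups.

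The promoters of UBE2T, UBE2N and UBE2S are shown because these are the genes with a promoter sequence among the 4 that fell most and because short motifs of cell cycle genes can be looked for in them. The sequences are from RefSeq (GRCh38.p14), cover 300 bases around the gene's start, most of them before it, and read 5′ to 3′ on the gene's strand. That of UBE2T is chr1:202341887-202342186, minus strand, that of UBE2N is chr12:93441898-93442197, minus strand, and that of UBE2S is chr19:55407739-55408038, minus strand. Capitals mark matches to TTTGAA (the cell cycle homology region, CHR) or CCAAT on either strand.
UBE2T: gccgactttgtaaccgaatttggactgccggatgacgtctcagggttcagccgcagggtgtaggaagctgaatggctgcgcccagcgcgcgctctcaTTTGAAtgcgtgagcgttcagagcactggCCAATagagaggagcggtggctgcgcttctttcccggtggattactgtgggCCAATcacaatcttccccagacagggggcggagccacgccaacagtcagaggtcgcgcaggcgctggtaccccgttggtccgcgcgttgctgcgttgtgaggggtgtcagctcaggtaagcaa
UBE2N: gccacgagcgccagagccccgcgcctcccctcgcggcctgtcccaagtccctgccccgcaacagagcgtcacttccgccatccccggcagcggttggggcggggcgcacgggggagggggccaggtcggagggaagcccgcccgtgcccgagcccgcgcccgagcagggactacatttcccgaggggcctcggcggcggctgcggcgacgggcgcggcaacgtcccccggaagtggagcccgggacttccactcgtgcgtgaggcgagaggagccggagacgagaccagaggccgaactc
UBE2S: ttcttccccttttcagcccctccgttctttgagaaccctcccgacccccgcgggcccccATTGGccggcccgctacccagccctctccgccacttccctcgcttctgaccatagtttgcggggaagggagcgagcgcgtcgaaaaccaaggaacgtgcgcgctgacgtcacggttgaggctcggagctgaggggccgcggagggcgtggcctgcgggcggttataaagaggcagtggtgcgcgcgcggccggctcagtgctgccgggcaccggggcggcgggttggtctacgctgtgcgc
In UBE2T the CHR letters stood at -153 to -148 from the start, and CCAAT at -124 to -120 and at -73 to -69. In UBE2S CCAAT stood on the other strand at -191 to -187, with no TTTGAA in the window. UBE2N held neither motif. A promoter sequence was matched for 25 of the 32 tested genes, with 37 promoters between them. CCAAT was found in 10 of these 37 promoters, from 8 genes, and in 34.6% of all 35116 promoters in the table. TTTGAA was found in 2 of the 37, from UBE2T and UBE2F, and in 15.2% of all. UBE2F, which holds both motifs as UBE2T does, was not called. The letters GCGGGAA, the core of an E2F site, were searched on either strand. They were found in 3 of the 37 promoters, from UBE2D3, UBE2E3 and UBE2L3, and in 6.55% of all promoters. None of the sequences printed here held them. Motif matches describe the letters only and say nothing about binding.

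UBE2T, the E2 of the Fanconi anaemia pathway that ubiquitinates FANCD2 and FANCI at DNA crosslinks, had the largest fall. Its values were 36.4, 36.4 and 35.5 in the controls and 13.9, 14.0 and 14.5 after amiodarone. All amiodarone libraries lay far below all controls. The mean fell by 60.8%, from 36.1 ± 0.50 to 14.1 ± 0.311 (SD, n = 3 per group), or by -1.29 ± 0.03 (standard error) in log2 terms (limma, adjusted p = 1.13e-10). In GENCODE 29 (GRCh38) the gene spans 202331657 to 202341980 of chromosome 1, minus strand. It shares no exonic base with another annotated gene and no 31-base word with the transcripts of one.

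UBE2C starts chains on APC/C substrates, and UBE2S extends them. The UBE2C values were 105.6, 107.8 and 111.7 in the controls and 48.3, 47.6 and 52.7 after amiodarone. The mean fell by 54.3%, or by -1.11 ± 0.04 (standard error) in log2 terms (limma, adjusted p = 1.07e-09). UBE2S stood at 142.3, 149.4 and 144.9 in the controls and at 99.6, 101.0 and 88.4 after amiodarone. Its groups were apart as well, but the mean fell by 33.8%, a log2 fold change of -0.59 (adjusted p = 4.09e-07). The UBE2C to UBE2S ratio was therefore lower after amiodarone, by -0.52 on the log2 scale, in all 3 amiodarone libraries against all 3 controls. An exact two-sided permutation test gave p = 0.1, the smallest that 3 against 3 libraries allow. In UBE2S, 19.6% of the 31-base words of its transcripts also occur in other genes, mainly the pseudogene UBE2SP1, so the split of reads is uncertain. In bulk RNA, fewer dividing cells and less of a transcript per cell cannot be told apart.

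UBE2N builds the chains that signal in DNA damage tolerance and in inflammatory signalling, always together with UBE2V1 or UBE2V2. Its values were 47.9, 48.7 and 47.8 in the controls and 28.4, 30.5 and 29.3 after amiodarone, with a wide gap between the groups. The mean fell by 39.0% (log2 fold change -0.70, limma, adjusted p = 1.03e-08). On the opposite strand NUDT4 overlaps 39.5% of the exonic bases of UBE2N, and NUDT4 itself was not called (25.5 ± 2.20 to 27.7 ± 0.179). UBE2V1, the partner in inflammatory signalling, was at 165.6, 165.9 and 171.0 in the controls and at 133.4, 129.3 and 136.7 after amiodarone. It fell by 20.5% (log2 fold change -0.33, adjusted p = 8.56e-07), and 42.9% of its exonic bases are also in the readthrough gene TMEM189-UBE2V1, which was listed at 0.55 or less in each library. UBE2V2, the partner in DNA damage tolerance, stood at 27.5, 25.6 and 24.6 in the controls and at 23.4, 24.9 and 25.7 after amiodarone. The 2 groups of UBE2V2 overlapped, and the gene was not called (log2 fold change -0.07, 95% interval -0.17 to 0.04), except lower after scaling to equal sums (limma, adjusted p = 0.0128).

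UBE2A and UBE2B are the human copies of yeast RAD6, which ubiquitinates PCNA with RAD18 and histone H2B with RNF20 and RNF40. UBE2A was at 36.4, 35.6 and 37.3 in the controls and at 27.8, 27.1 and 27.5 after amiodarone, with no overlap. It fell by 24.6% (log2 fold change -0.39, limma, adjusted p = 6.56e-07). NKRF, encoded by the other strand, covers 18.1% of the exonic bases of UBE2A and fell as well (10.5 ± 0.406 to 8.16 ± 0.165). UBE2B was at 8.19, 8.35 and 8.37 in the controls and at 8.83, 8.85 and 8.78 after amiodarone. All 3 amiodarone values lay above the controls, but the gene was not called (log2 fold change 0.08, adjusted p = 0.115), and it was called higher after scaling by the median of ratios (adjusted p = 0.00975). UBE2A made up 81.4% ± 0.376 of the summed value of this pair in the controls and 75.7% ± 0.260 after amiodarone. The 8 tested UBE2 genes grouped under cell cycle and DNA repair were UBE2T, UBE2C, UBE2N, UBE2S, UBE2A, UBE2B, UBE2V1 and UBE2V2. Of these, 6 were called lower and none higher as deposited, and the 6 include UBE2V1, the partner in inflammatory signalling. Over all tested genes 44.8% were called lower and 33.5% higher. UBE2B was the 1 of the 8 called higher under median-of-ratios scaling.

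The UBE2D enzymes work with a wide range of ligases and often place the first ubiquitin on a target. UBE2D3 was by far the most abundant, at 126.8, 121.6 and 124.6 in the controls and 126.8, 137.8 and 133.3 after amiodarone. It was called higher by a small margin (log2 fold change 0.09, limma, adjusted p = 0.0224). The lowest amiodarone value exceeded the highest control by less than the spread among either group, and the call was lost when libraries were scaled to equal sums (log2 fold change 0.002, adjusted p = 0.961), without the trend in limma (adjusted p = 0.0783) and without control replicate 2 (0.0842), amiodarone replicate 2 (0.1) or amiodarone replicate 3 (0.0522). UBE2D1 stood at 6.93, 6.48 and 7.05 in the controls and at 8.38, 7.24 and 7.95 after amiodarone (log2 fold change 0.18, adjusted p = 0.0167). UBE2D4 stood at 7.71, 6.63 and 6.66 in the controls and at 8.65, 8.79 and 7.69 after amiodarone (log2 fold change 0.23, adjusted p = 0.00871), and its groups overlapped at the edge. Neither rise was called after scaling to equal sums (adjusted p of 0.151 for UBE2D1 and 0.0606 for UBE2D4), and that of UBE2D1 ended without control replicate 2 (0.0659) or amiodarone replicate 1 (0.0647). A non-coding transcript, POLR2J4, overlaps 15.5% of the exonic bases of UBE2D4 on the opposite strand.

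UBE2D2 was called lower, while the other UBE2D genes were called higher as deposited. Its values were 21.1, 21.9 and 22.3 in the controls and 19.8, 17.5 and 16.7 after amiodarone, a fall of 17.5% (log2 fold change -0.27, limma, adjusted p = 0.00107). The groups did not overlap, and amiodarone replicate 1 lay closest to the controls. UBE2D2 supplied 13.6% ± 0.554 of the summed UBE2D value in the controls and 10.8% ± 1.12 after amiodarone, and UBE2D3 77.7% ± 0.234 and 79.5% ± 1.70. The summed UBE2D value was 160 ± 3.01 in the controls and 167 ± 4.01 after amiodarone (exact two-sided permutation test, p = 0.1, the smallest possible). Of the 31-base words of UBE2D2 transcripts, 1.4% also occur in UBE2D3.

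The UBE2E enzymes, relatives of UBE2D with an extended amino end, had 1 fall among 3 genes. UBE2E1 (95, 91.3 and 95.1 in the controls and 88.9, 92.3 and 91.7 after amiodarone) and UBE2E2 (14.3, 13.5 and 14.3 against 13.6, 15.2 and 14.3) were not called, with overlapping groups. Their 95% intervals ran from -0.11 to 0.02 and from -0.07 to 0.14 on the log2 scale, and UBE2E1 was called lower after scaling to equal sums (limma, adjusted p = 0.00162). UBE2E3 was lower, at 16.0, 17.2 and 16.7 in the controls and 14.3, 14.4 and 13.4 after amiodarone (log2 fold change -0.23, limma, adjusted p = 6.3e-04). UBE2W, which attaches ubiquitin to the amino end of proteins, had the largest rise of the tested UBE2 genes. Its values were 7.42, 7.67 and 6.26 in the controls and 10.2, 10.3 and 11.1 after amiodarone. The groups were well apart, and the mean was 1.48 times that of the controls (log2 fold change 0.51, adjusted p = 3.71e-05).

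**Figure D2:**
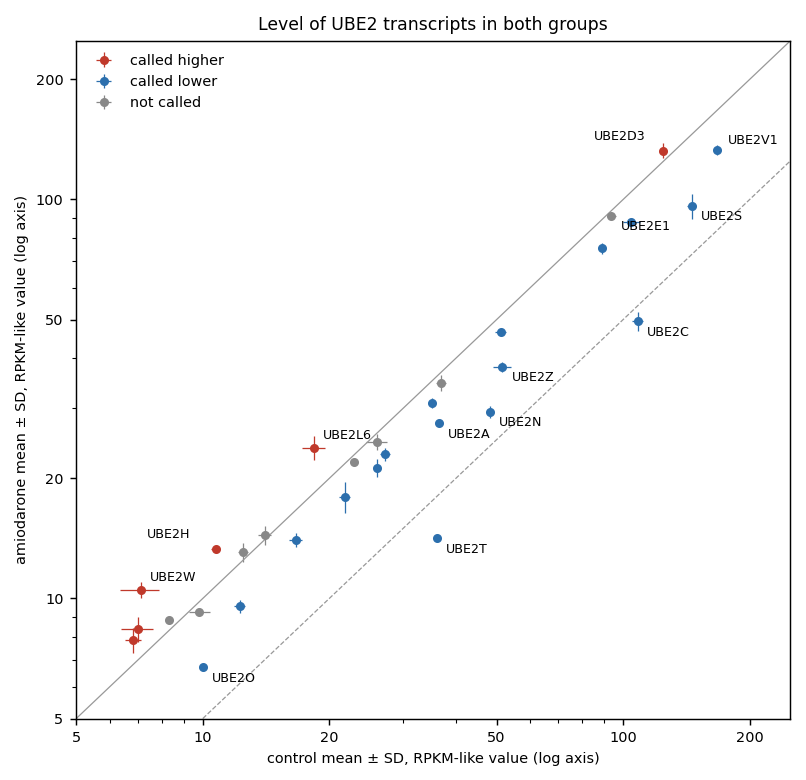
Control mean (x axis) against amiodarone mean (y axis) of the RPKM-like value of the tested UBE2 genes, with 1 of the 32 not shown, on log axes, with bars of 1 SD over 3 libraries; the solid line marks equal levels and the dashed line a fall to 50%. UBE2T and UBE2C lie below the dashed line, most other genes lie between the lines, and the genes called higher are at low levels apart from UBE2D3 and UBE2L6.

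The E2 enzymes of the ubiquitin-like modifiers were split. UBE2Z takes ubiquitin, and the related modifier FAT10, only from the E1 enzyme UBA6. It fell by 26.3% with no overlap, from 53.8, 52.4 and 48.7 to 38.2, 37.0 and 39.0 (log2 fold change -0.43, limma, adjusted p = 1.89e-06). Of the 5 tested genes in this group 3 were lower and 1 was higher, beside 44.8% lower and 33.5% higher over all tested genes.

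UBE2M and UBE2F both carry NEDD8, the modifier that switches on cullin ligases. UBE2M serves most cullins and was at 87.2, 91.2 and 88.6 in the controls and at 77.9, 75.6 and 73.1 after amiodarone, a fall of 15.1% (log2 fold change -0.23, limma, adjusted p = 3.49e-05). UBE2F serves CUL5 and was at 12.9, 12.2 and 12.3 in the controls and at 12.3, 13.6 and 13.4 after amiodarone. It was not called, and its groups overlapped (log2 fold change 0.06, adjusted p = 0.248), but it was called higher under median-of-ratios scaling (adjusted p = 0.0251). The readthrough gene UBE2F-SCLY holds 16.2% of its exonic bases. UBE2L6, the interferon-inducible E2 for ISG15, rose from 19.7, 17.6 and 17.8 to 25.5, 24.0 and 22.2. No control reached the lowest amiodarone library, and the mean was 1.30 times that of the controls (log2 fold change 0.36, adjusted p = 1.29e-04). UBE2L3, its close relative, hands ubiquitin to ligases of the HECT and RBR types and fell from 101.0, 102.7 and 110.4 to 90.3, 87.2 and 86.4 (log2 fold change -0.25, adjusted p = 6.4e-05).

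Among the E2 enzymes of chain building and protein degradation, UBE2H was the only riser. It supplies the CTLH ligase and is known for its part in red cell maturation, and it was at 11.01, 10.52 and 10.68 in the controls and at 13.5, 13.3 and 13.1 after amiodarone. The values were tight and apart, with a mean 1.24 times that of the controls (log2 fold change 0.28, limma, adjusted p = 6.14e-05). UBE2K (25.9 ± 0.569 to 21.2 ± 1.10), which extends chains, fell. UBE2G1, which works with cullin 4 ligases, fell from 12.4, 12.5 and 11.8 to 9.23, 9.52 and 9.93. UBE2G2 (51.8, 49.4 and 52.2 to 45.7, 46.8 and 47.1) and UBE2J2 (26.6, 28.0 and 26.9 to 23.0, 22.2 and 23.8), which serve the degradation of proteins from the endoplasmic reticulum, fell too. None of these groups overlapped, and the call of UBE2G2 ended after scaling by the median of ratios (limma, adjusted p = 0.0782). UBE2J1, of the same degradation route, stood at 38.0, 36.7 and 36.0 in the controls and at 32.9, 35.1 and 36.0 after amiodarone. It was not called (adjusted p = 0.0551), but it was called lower after scaling to equal sums (0.00178) and without amiodarone replicate 3 (0.0254). UBE2R2, which works with the SCF cullin ligases, stood at 23.3, 22.3 and 23.1 in the controls and at 21.5, 22.2 and 22.2 after amiodarone. It was not called (adjusted p = 0.147), except lower after scaling to equal sums (0.00377).

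Of the large or less studied enzymes, UBE2O, a hybrid of E2 and E3 that clears unassembled proteins, had the fifth largest fall of all UBE2 genes. Its values went from 9.81, 9.92 and 10.2 to 6.55, 6.81 and 6.79. With no overlap between groups, the mean fell by 32.7% (log2 fold change -0.51, limma, adjusted p = 1.36e-06), and UBE2O had the lowest mean of the 32 tested genes after amiodarone. UBE2Q1 fell by 11.7%, from 35.6, 35.3 and 34.2 to 31.9, 30.7 and 30.2 (log2 fold change -0.17, adjusted p = 6.31e-04). UBE2Q2, at 9.92, 9.21 and 10.3 in the controls and 9.19, 9.12 and 9.50 after amiodarone, was called lower only after scaling to equal sums (adjusted p = 0.0168). The 3 genes not tested had values under 1 in every library. UBE2L5, a retrogene that shares 11.2% of its 31-base words with UBE2L3, had values of 0.32 to 0.40 in the controls and 0.45 to 0.82 after amiodarone. UBE2Q2L ranged from 0.12 to 0.61 over the 6 libraries, with 52.7% of its words shared with other genes. UBE2QL1 was listed at 0 in all controls and at no more than 0.01 after amiodarone.

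Pairs of E2 genes were compared through the ratio of the 2 transcripts in each library. Most were close relatives, while UBE2C and UBE2S share a ligase and UBE2M and UBE2F a modifier. Of 16 pairs compared, 12 (75%) had ratios that did not overlap between the groups, near the 78.8% over every pair of tested genes. Each of these had p = 0.1 in an exact two-sided permutation test, the smallest that 3 against 3 libraries allow, and an adjusted p of 0.133 over the pairs, so no pair could pass 0.05. The widest difference was between UBE2L3 and UBE2L6, whose log2 ratio went from 2.45 ± 0.134 to 1.84 ± 0.0672. That of UBE2A to UBE2B went from 2.01 ± 0.0343 to 1.54 ± 0.0194, and that of UBE2D1 to UBE2D2 from -1.54 ± 0.0681 to -1.10 ± 0.101. In UBE2M and UBE2F the ratio fell from 2.74 ± 0.0677 to 2.44 ± 0.113, and in UBE2V1 and UBE2V2 from 2.65 ± 0.0993 to 2.39 ± 0.0676. Among the 12 pairs, the log2 fold change was lower for the more abundant gene in 7 and for the scarcer gene in 5. The latter were UBE2C and UBE2S, UBE2D2 and UBE2D3, UBE2G1 and UBE2G2, UBE2E1 and UBE2E3, and UBE2J1 and UBE2J2. CDC34, the other SCF enzyme beside UBE2R2 and itself an E2 without a UBE2 name, had a log2 ratio to UBE2R2 of 0.96 ± 0.0866 and 0.95 ± 0.0360 (exact permutation test, p = 0.9). CDC34 was at 46.1, 47.3 and 43.4 in the controls and at 42.6, 44.6 and 42.4 after amiodarone and was not called (limma, adjusted p = 0.0799).

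**Figure D3:**
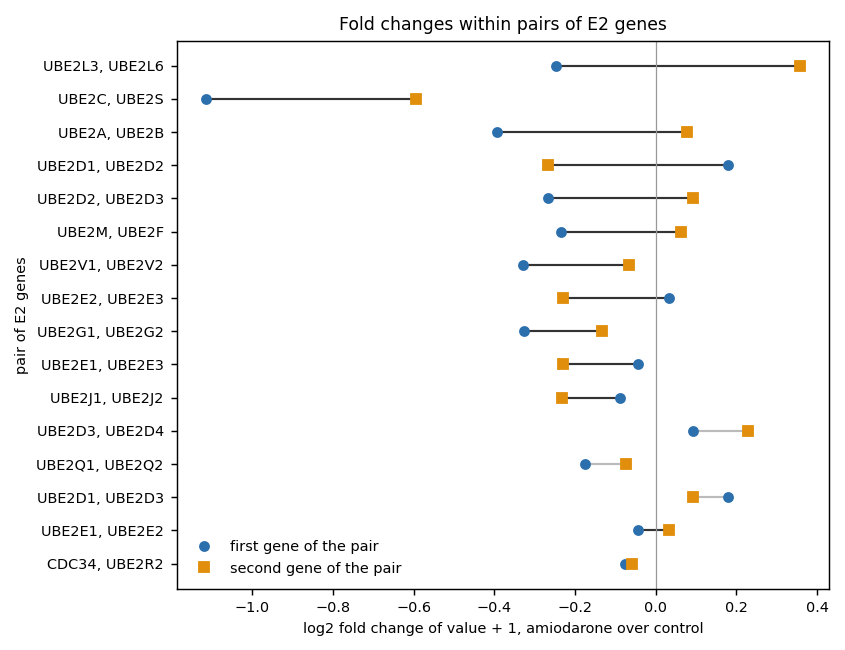
Each row is a pair of E2 genes, with the log2 fold change of value + 1 of the first gene as a circle and of the second as a square; dark lines join pairs whose log2 ratio did not overlap between the groups, and pale lines the others. UBE2L3 and UBE2L6 are furthest apart (-0.25 and 0.36), and CDC34 and UBE2R2 nearly coincide (-0.08 and -0.06).

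The summed value of the 35 UBE2 genes was 1550, 1546 and 1568 in the controls and 1264, 1261 and 1258 after amiodarone. As a share of all values in a library this was 0.290% ± 0.00325 and 0.221% ± 7.35e-04, with no overlap (exact two-sided permutation test, p = 0.1, the smallest possible). Of the net fall of 293.9, UBE2C made up 20%, UBE2S 16.75%, UBE2V1 11.7%, UBE2T 7.47% and UBE2N 6.39%. In the order of levels among the 32 tested genes, UBE2V1 moved from rank 2 to rank 1, UBE2D3 from 4 to 2, UBE2C from 5 to 8 and UBE2T from 14 to 22. UBE2V1 (133 ± 3.70) and UBE2D3 (133 ± 5.54) then led, at levels closer than their spread.

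The partners of the E2 enzymes were followed in 12 lists. Of 149 tested genes in them, 70 were lower, 46 higher and 33 not called. Their median log2 fold change was -0.08, near the -0.06 of all genes. Over all tested genes 44.8% were called lower and 33.5% higher. The counts of each list, here and in the following paragraphs, are to be read beside these shares. Counts after scaling belong beside the split of all called genes in that setting. Of these, 50% were higher under median-of-ratios scaling and 34.6% after scaling to equal sums, against 42.8% as deposited. The genes that act with UBE2T fell: 10 of 13 tested Fanconi genes were lower and none was higher, with a median of -0.67. Among them were FANCA (9.61 ± 0.282 to 3.36 ± 0.111) and FANCG (15.6 ± 0.781 to 6.26 ± 0.654), subunits of the core ligase, and its substrate FANCI (19.6 ± 0.385 to 10.7 ± 0.382). In the APC/C list 10 of 17 were lower and 3 higher (median -0.37). CDC20, the activator of the APC/C in mitosis, went from 48.8 ± 0.475 to 23.6 ± 0.125. The inhibitor FBXO5 went from 11.4 ± 0.450 to 5.60 ± 0.293 and the subunit ANAPC5 from 77.9 ± 2.21 to 53.3 ± 0.895. Partners of UBE2A, UBE2B and UBE2N at damaged DNA had 5 of 12 lower and 4 higher as deposited (median -0.08), and 7 lower and 2 higher after scaling to equal sums. In that list the substrate PCNA went from 201 ± 6.17 to 55.3 ± 0.211, USP1, which removes ubiquitin from it, from 20.6 ± 0.838 to 13.3 ± 0.794, and the ligase RNF40 from 35.8 ± 0.973 to 26.2 ± 0.726.

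Upstream of the E2 step, UBA1, the main E1 for ubiquitin, went from 88.5 ± 0.679 to 57.6 ± 1.04 (log2 fold change -0.61, limma, adjusted p = 4.34e-09). The SUMO E1 subunit UBA2 (40.9 ± 0.411 to 32.9 ± 1.39) was lower and ATG7, the E1 of autophagy (18.0 ± 0.650 to 23.5 ± 0.802), higher. In all 4 of 9 tested E1 genes were lower and 4 higher. Of 12 tested modifier genes 6 were lower and 4 higher as deposited, 3 and 5 under median-of-ratios scaling, and 8 and 1 after scaling to equal sums. The ubiquitin gene UBB went from 564 ± 13.6 to 411 ± 10.5. Of 8 tested E2-like genes without a UBE2 name, 3 were higher and 1 was lower as deposited, and 3 higher and 3 lower after scaling to equal sums. TSG101 (35.9 ± 1.22 to 47.8 ± 1.35) and UEVLD (5.96 ± 0.273 to 9.72 ± 0.486), which have the E2 fold without its cysteine, were higher, and ATG3, the E2 of autophagy (45.4 ± 2.39 to 33.2 ± 1.84), was lower.

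Downstream, 10 of 20 tested genes of cullin and NEDD8 ligases were lower and 6 higher (median -0.09). SKP2 went from 17.1 ± 0.815 to 10.1 ± 0.368, CUL4A from 49.1 ± 0.936 to 37.3 ± 1.23 and CUL1 from 18.3 ± 0.143 to 14.0 ± 0.257. Of the SUMO ligases and proteases, 7 of 13 were higher and 4 lower (median 0.16), and 6 higher and 5 lower after scaling to equal sums. The protease SENP7 (3.26 ± 0.275 to 6.82 ± 0.525) was higher and RANGAP1, a major SUMO target, lower (41.8 ± 0.596 to 29.4 ± 1.70). Of the ISG15 partners of UBE2L6, HERC5, the main ligase for ISG15, was lower (6.54 ± 0.355 to 3.89 ± 0.155), as was HERC6 (log2 fold change -0.23), and the other 2 of 4 were not called. ISG15 itself, named after its values were seen, was at 20.9 ± 1.87 and 23.5 ± 1.43. It was called higher (log2 fold change 0.16, limma, adjusted p = 0.0309), but its groups overlapped.

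In degradation from the endoplasmic reticulum 8 of 16 tested genes were lower and 2 higher (median -0.16), and 13 were lower after scaling to equal sums. VCP, the ATPase that extracts ubiquitinated proteins, went from 62.1 ± 0.531 to 29.4 ± 0.998 and DERL3 from 16.3 ± 0.610 to 5.29 ± 0.0961, while the stress gene HERPUD1 went from 28.1 ± 0.636 to 40.4 ± 0.423. Ligases of the RBR type with TRAF6, partners of UBE2L3 and UBE2N, had 6 of 10 higher and 4 lower (median 0.33). RNF31, the catalytic subunit of the linear chain ligase, was lower (19.6 ± 0.567 to 12.5 ± 0.785), and its partner RBCK1 (75.0 ± 1.88 to 96.1 ± 2.41) and RNF19B (7.84 ± 0.0850 to 13.6 ± 0.962) were higher. HECT ligases were split, with 7 of 15 higher and 6 lower (median 0.13), and 5 higher and 6 lower after scaling to equal sums. HUWE1 went from 22.7 ± 0.417 to 14.2 ± 0.526, UBE3C from 18.8 ± 0.422 to 12.9 ± 0.449 and NEDD4 from 2.03 ± 0.0971 to 3.48 ± 0.116.

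**Figure D4:**
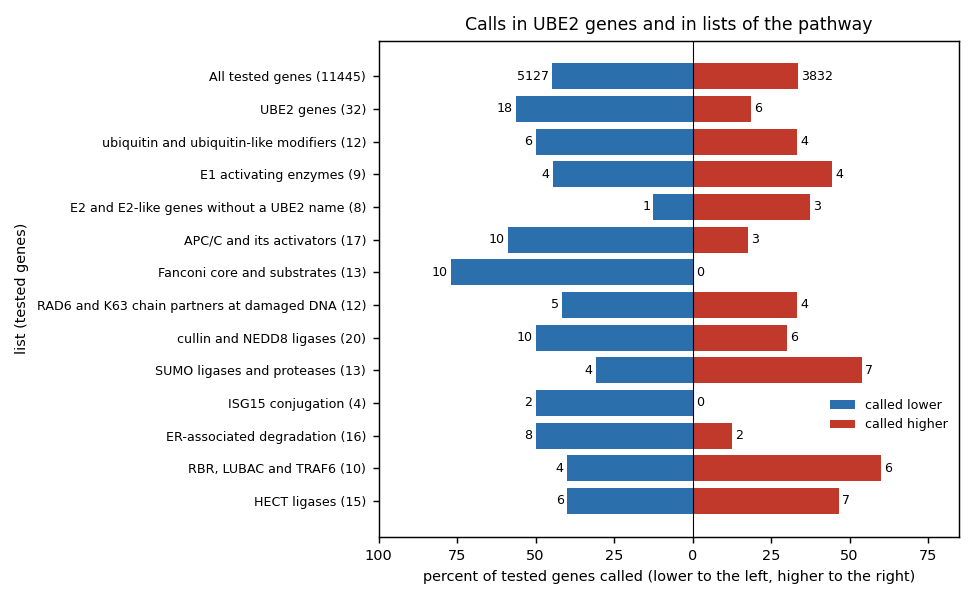
Percent of tested genes called lower (bars to the left) and higher (bars to the right) in all tested genes, in the UBE2 genes and in 12 lists of the pathway, with the number of genes at each bar and the number tested beside each name. The UBE2 genes have 18 lower and 6 higher of 32, and the Fanconi list has 10 lower and none higher of 13.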

How the data were processed

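Total RNA of 6 HL-60 libraries was taken up in a phenol reagent and converted to stranded mRNA libraries, per the labels' protocols. Tools listed in the submitters' processing notes are STAR 2.5.3a, fastp 0.23.4 and featureCounts, with build GRCh38.p12; annotation, strand setting and normalization were not stated in the sources used here. The deposited values carry no unit per the file headers and were taken as RPKM made by the authors. Their sums differed between libraries by a factor of 1.075, and sums weighted by exonic length by 1.028. The weighted sums were 2.176 to 2.237, more than RPKM made with these lengths can give, so the lengths or the unit differ. TPM with rows left out cannot be told apart for certain. Depth was estimated from steps between low values, assuming RPKM. At the depth chosen, 47.6% to 54.3% of those values fell within 0.15 of a whole step. The median over all depths tried was 26.1% to 27.9%.

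Values were not rescaled. Genes reaching 1 in 3 or more libraries (11445 of 17911) were tested with limma 3.58.1 in R 4.3.3 (lmFit, eBayes with trend) on log2(value + 1), which understates the change of low genes, with Benjamini-Hochberg adjustment; the procedure was tested on simulated data. Percentages are ratios of group means. Coordinates, overlaps and shared words came from GENCODE 29. 26 symbols turned into dates were restored by Entrez ID.

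The UBE2 genes, lists and pairs were chosen with earlier results of these data known. Values in every library are given for the 8 most positive and 8 most negative UBE2 genes by log2 fold change and for compared pairs. From each list up to 3 called genes with the smallest adjusted p are named, plus CDC34. 1 of the 8 most negative UBE2 genes and some partner genes and markers are counted but not reported here by name. Alternatives were other pseudocounts, filters and scalings, no trend, a replicate block and leaving out each library.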

Additional observations from a re-analysis of the deposited data

How the results depend on the processing

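The 24 calls among UBE2 genes ranged from 22 to 26 over the alternatives run, and those called lower from 17 to 23. The number called higher was 3 after scaling to equal sums and 4 to 6 without any 1 library. The median log2 fold change of the UBE2 genes was -0.13 under median-of-ratios scaling and -0.29 under scaling to equal sums. Over all tested genes the median moved as well, to 0.0007 and -0.143 under these scalings from -0.0608 as deposited. Without any 1 library the UBE2 median ran from -0.21 to -0.18. Without a filter on low values it was -0.13, beside 0.002 over all genes, and that setting adds the 3 genes left out of the main test. Their log2 fold changes were 0.27 for UBE2L5, 0.16 for UBE2Q2L and 0.0096 for UBE2QL1. UBE2L5 was called higher in that setting (limma, adjusted p = 0.0235), which had 7 UBE2 genes higher and 18 lower. The sign of small changes was not settled. After scaling by the median of ratios the log2 fold change was 0.027 for UBE2E1, 0.002 for UBE2V2 and 0.009 for UBE2R2. After scaling to equal sums it was -0.022 for UBE2F, -0.052 for UBE2E2 and -0.004 for UBE2B, and for UBE2E2 it ran from -0.005 to 0.069 without any 1 library. The difference between CDC34 and UBE2R2 ran from -0.059 to 0.027 in the same way. Replicate numbers gave no pairing, since deviations of same-numbered libraries correlated at -0.15, -0.02 and -0.02, and the replicate block left 24 UBE2 genes called, 6 higher and 18 lower, as without it. Which scaling is right was not tested.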
